A study of Caenorhabditis elegans with 2 samples.

Results

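The cytosolic chaperonin CCT (also called TRiC) was examined here through its 8 subunit genes, cct-1 to cct-8, as possible binding sites of the zinc finger protein ZTF-26 in the nematode Caenorhabditis elegans. The members were chosen by gene name, and all 8 of them were found among the 19973 annotated protein-coding genes of the nuclear chromosomes. ZTF-26 was mapped by chromatin immunoprecipitation and sequencing (ChIP-seq) with an anti-GFP antibody, in 2 biological replicates (numbers 3 and 4) that form 1 group. The worms were of the transgenic strain OP565, with the genotype unc-119(tm4063) III; wgIs565, in which a stable transgene makes ZTF-26 with GFP and FLAG at its C terminus. They were young adults of mixed sex, taken as whole animals 56 hours after synchronization as starved L1 larvae. Both replicates carry the unc-119 allele and the transgene, and the labels do not name the promoter that drives the transgene. Whole animals pool all tissues, so binding in few cells and weak binding in many cannot be told apart. A control library was not analysed here, and depth is unknown for both libraries because the files hold no read counts.

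CCT is a chaperone built of stacked rings, each with 1 copy of every subunit, so all 8 gene products are needed together. It closes over newly made proteins and lets them fold with the energy of ATP, and actin and tubulin are its best known clients. The co-chaperone prefoldin hands those clients over. In yeast, the ring has a side that binds ATP tightly, made of subunits 1, 2, 4 and 5, and a side that binds it less well, made of subunits 3, 6, 7 and 8. In worms, raising the level of cct-8 alone has been reported to favour assembly of the complex.

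ZTF-26 peaks of the authors' optimal list lay at 3 of the 8 CCT genes, cct-8, cct-1 and cct-7. The authors deposited this list of 1929 peaks as thresholded on reproducibility, and 1918 of them had a candidate in both replicates. A gene was counted when the summit of an optimal peak lay in its promoter window. The window spans 1000 bp before and 500 bp after the 5' end of any transcript of the gene. By that count 37.5% of the CCT genes had a peak, against 5.69% of all protein-coding genes, and the 3 genes had 3 separate peaks. A further 4 members (cct-5, cct-6, cct-4 and cct-3) had weaker candidates in the pooled list, and cct-2 had none in its window. The pooled list also holds background. The candidates at cct-4 and cct-3 had deposited −log10 q-values of only 0.186 and 0.173, against 3.63 at every optimal peak. The 7 of 8 members with a candidate of any rank compare with 40.1% of all protein-coding genes. With 8 members, these shares are descriptions and were not tested. The 3 genes with an optimal peak fell on both sides of the yeast ring, cct-1 on the side that binds ATP tightly and cct-7 and cct-8 on the other. The 1929 strongest peaks of replicate 4 gave cct-5, of the tight side, in place of cct-7. With 3 genes no preference for a side can be read from this.

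The sequences under the stronger summits are given here, for optimal peaks and for candidates outside the optimal list. Each line gives the strongest pooled summit with 50 bp on each side, read 5' to 3' on the strand of the CCT gene, from the RefSeq genome of build WBcel235 (the ce11 coordinates of the files). The first 3 are the optimal peaks, the next 2 are the strongest candidates below the optimal list inside the promoter window of a CCT gene, and the last is the candidate upstream of cct-2, outside its window. Capitals mark matches to the motifs described further on.
cct-8, IV:1094317-1094417, minus strand: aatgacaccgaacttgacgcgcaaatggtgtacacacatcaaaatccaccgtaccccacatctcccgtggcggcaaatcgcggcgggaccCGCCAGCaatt
cct-1, II:8185151-8185251, plus strand: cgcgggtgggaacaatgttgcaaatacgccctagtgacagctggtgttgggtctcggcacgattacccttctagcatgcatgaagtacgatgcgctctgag
cct-7, V:1871880-1871980, plus strand: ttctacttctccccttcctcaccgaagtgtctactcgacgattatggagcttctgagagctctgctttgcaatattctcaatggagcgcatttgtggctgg
cct-5, III:4508480-4508580, minus strand: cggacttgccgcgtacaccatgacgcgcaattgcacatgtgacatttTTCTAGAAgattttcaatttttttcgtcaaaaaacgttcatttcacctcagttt
cct-6, III:5855909-5856009, minus strand: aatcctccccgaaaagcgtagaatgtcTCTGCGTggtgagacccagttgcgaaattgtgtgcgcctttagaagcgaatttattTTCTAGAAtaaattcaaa
cct-2, II:8926604-8926704, plus strand: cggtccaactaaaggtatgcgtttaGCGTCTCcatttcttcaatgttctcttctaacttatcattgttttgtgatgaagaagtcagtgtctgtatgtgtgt

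The peak at cct-8 was by far the strongest of the family. Its signal, a value that the authors gave each peak on a scale not stated, was 293 in replicate 3, 186 in replicate 4 and 481 when pooled. It ranked 42 of 28233 pooled peaks, 45 in replicate 3 and 37 in replicate 4, so both replicates placed it near the top. The gene (WBGene00021934, IV:1087108-1093920, minus strand) has 2 annotated 5' ends. The peak was intergenic, at IV:1094228-1094490, and had its summit 447 bp upstream of the outer of them. Replicate summits were 6 bp apart there.

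The other optimal peaks were several times weaker. At cct-1 (WBGene00000377, II:8185443-8187601, plus strand) the signal was 108 in replicate 3, 58.6 in replicate 4 and 171 when pooled, with ranks of 560, 703 and 517 in those lists. This peak, at II:8184981-8185420, was intergenic, and its summit lay 242 bp upstream of the 5' end. At cct-7 (WBGene00020391, V:1872246-1875505, plus strand) the signal was 74.3 in replicate 3, 30.0 in replicate 4 and 105 when pooled. The cct-7 peak ranked 1478 in the pooled list, not far above the weakest optimal peak, whose signal was 90.2. It lay at V:1871710-1872149, also intergenic, with its summit 316 bp upstream.

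The next members by pooled signal, cct-5 and cct-6, had no peak in the optimal list. At cct-5 (WBGene00000380, III:4499188-4508114, minus strand) the signal was 40.9 in replicate 3, 40.6 in replicate 4 and 82.2 when pooled, and the summit lay 416 bp upstream. At cct-6 (WBGene00000381, III:5853530-5855687, minus strand) it was 39.3 in replicate 3, 22.1 in replicate 4 and 65.4 when pooled, at 272 bp upstream. These pooled candidates ranked 2305 and 3573, outside the 1929 optimal peaks.

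The remaining members had little or no signal in their windows. At cct-4 (WBGene00000379, II:8283667-8285711, plus strand) the signal was 32.8 in the pooled list and 21.4 in replicate 3. At cct-3 (WBGene00018782, II:2233540-2243539, plus strand) it was 32.2 in the pooled list and 22.6 in replicate 3. Replicate 4 listed no candidate at either gene, and the lowest signal in its list was 13.4. The cct-3 candidate was the only one of the 7 with its summit downstream of the 5' end, 75 bp into the gene, in a coding exon. At cct-2 (WBGene00000378, II:8927741-8929815, plus strand) no list held a summit in the window, and the nearest pooled candidate had its summit 1087 bp upstream, just past the window's limit. That candidate had a signal of 56.4 in replicate 3, 25.1 in replicate 4 and 82.1 when pooled, about as strong as the one at cct-5 in the pooled list.

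**Figure D1:**
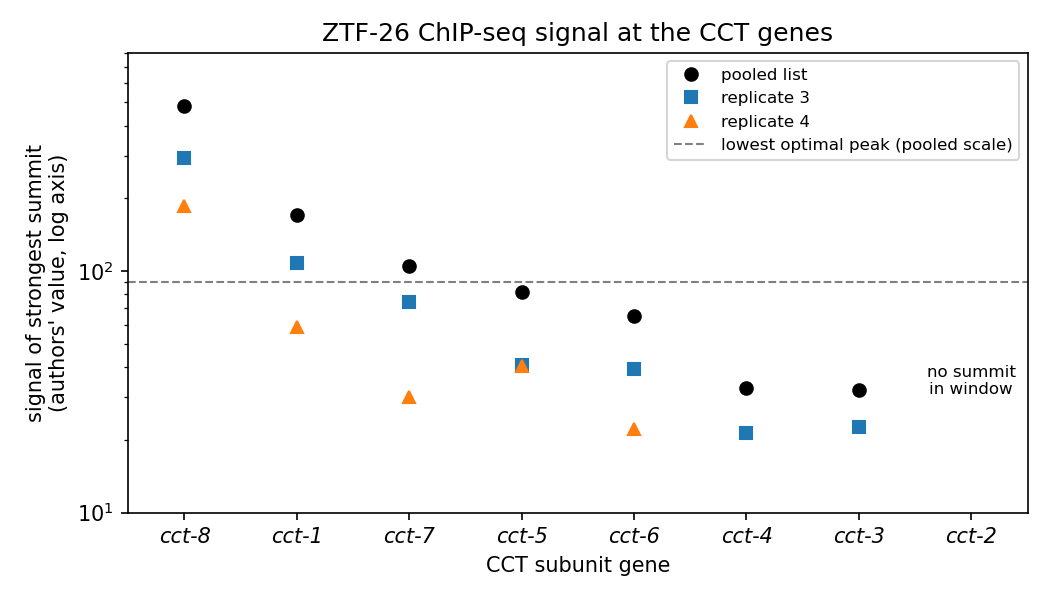
Signal of the strongest summit in the promoter window of each CCT gene, on a log axis of the authors' signal value, in each replicate and pooled, with a dashed line at the lowest optimal peak (90.2, pooled scale). In the pooled list cct-8 (481), cct-1 (171) and cct-7 (105) stand above the line and cct-5 (82.2) lies just below it.

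Set among all protein-coding genes, the CCT genes were spread from near the top of the scale to below its middle. Of the 8015 genes with a pooled candidate in their window, cct-8 took place 30, cct-1 place 350 and cct-7 place 923, followed by cct-5 at 1334 and cct-6 at 1927. The weak candidates at cct-4 and cct-3 took places 5171 and 5319. The 7 CCT genes with a candidate had a median pooled signal of 82.2, against 39.4 for all 8015. The genes nearest to cct-8 in pooled signal, each gene taken by its 1 strongest summit, were R107.5 and cls-2 just above it (486, 1 shared summit) and iff-2 and F54C9.14 just below it (458, 1 shared summit), while Y55F3AR.2 shares the cct-8 summit itself. iff-2 encodes the translation factor eIF5A and cls-2 a CLASP protein that binds microtubules.

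**Figure D2:**
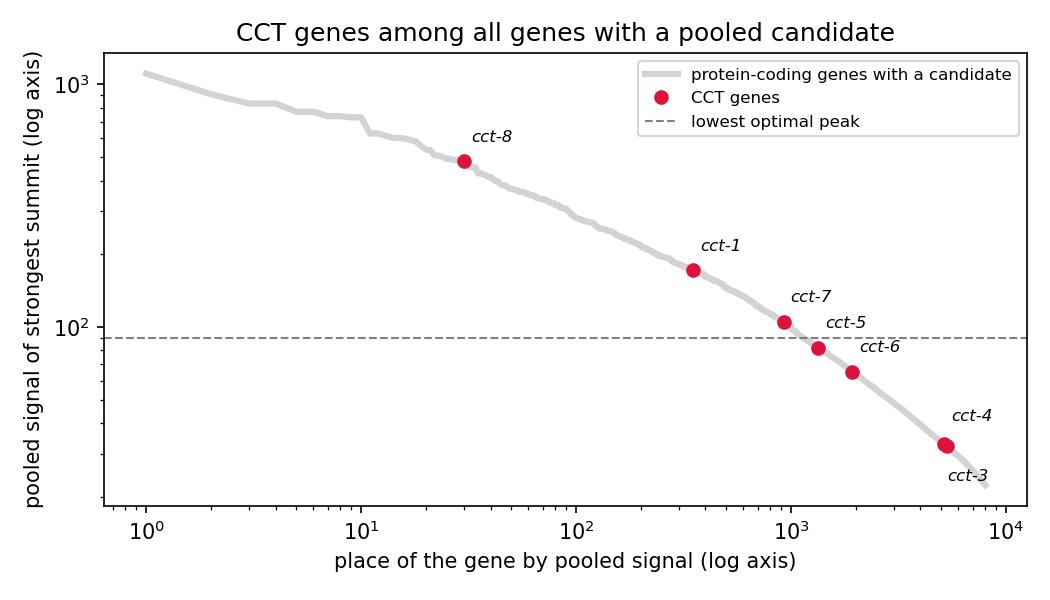
Protein-coding genes with a pooled candidate, ordered along a log axis by the pooled signal of their strongest summit (log axis, authors' value), with the 7 CCT genes as red points and a dashed line at the lowest optimal peak. The points run from cct-8 at place 30 to cct-3 at place 5319 of 8015, and 3 lie above the line.

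Each CCT gene starts head to head with another protein-coding gene, and at all members but cct-3 the strongest pooled summit lay in the sequence that the pair shares. In these pairs the genes lie on opposite strands with no protein-coding gene between them, and their outermost 5' ends are at most 2000 bp apart, a limit chosen after the positions were seen. All 8 CCT genes are in such a pair, against 4991 (25.0%) of all protein-coding genes. Among those 4991 genes 8.80% had an optimal peak, against 5.69% of all protein-coding genes. The 5' ends were 331 bp apart for cct-6 and the aldehyde dehydrogenase gene alh-9, the closest pair, and 1190 bp apart for cct-2 and B0457.2, the widest.

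With cct-2 taken by its candidate beyond the window, the strongest pooled summit lay between the 5' ends of the pair for 7 of 8 members, all but cct-3. Counting window candidates alone it was 6 of 7 (85.7%), against 59.6% of the 2201 head-to-head genes with a pooled candidate. For optimal peaks it was 3 of 3, and the share was also high over the 439 head-to-head genes with an optimal peak, at 84.3%. By annotated 5' ends, the summit was closer to the partner gene than to the CCT gene in the same 7 of 8 members. At the 8 CCT genes the outermost annotated 5' end lies 1 to 30 bp before the start codon. Where transcription begins was not measured, and the distances would change with other 5' ends. The cct-8 summit was 447 bp upstream of cct-8 and 174 bp upstream of Y55F3AR.2. The cct-1 summit was 242 bp upstream of cct-1 and 178 bp upstream of mig-5, which encodes a Dishevelled protein of Wnt signalling. The cct-7 summit was 316 bp upstream of cct-7 and 123 bp upstream of T10B5.4. Each optimal CCT peak was thus shared with a second gene whose annotated 5' end was closer.

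Of the weaker candidates, those at cct-6, cct-4, cct-5 and cct-2 were also nearer the partner, and that at cct-3 was not. The cct-6 summit was 59 bp upstream of alh-9, the cct-4 summit 154 bp upstream of nst-1, the gene for the nucleolar GTPase nucleostemin, and the cct-5 summit 325 bp upstream of F25F2.1. The candidate 1087 bp upstream of cct-2 was 103 bp upstream of B0457.2 and inside the short non-coding RNA gene VT21B10L.1. The cct-3 summit, 75 bp inside cct-3, was 1145 bp from the 5' end of its partner F54A3.6. Counting window candidates alone, the summit was nearer the partner for 6 of 7 CCT genes (85.7%), against 39.9% of the 2201 head-to-head genes with a pooled candidate. For optimal peaks it was 3 of 3, against 42.1% of 439 genes. When each optimal peak was given to the single protein-coding gene with the nearest annotated 5' end, 0 of the 8 CCT genes kept a peak. The share of all protein-coding genes was 4.48%. Which gene of a pair responds to the bound factor was not measured, since the series holds no expression data.

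**Figure D3:**
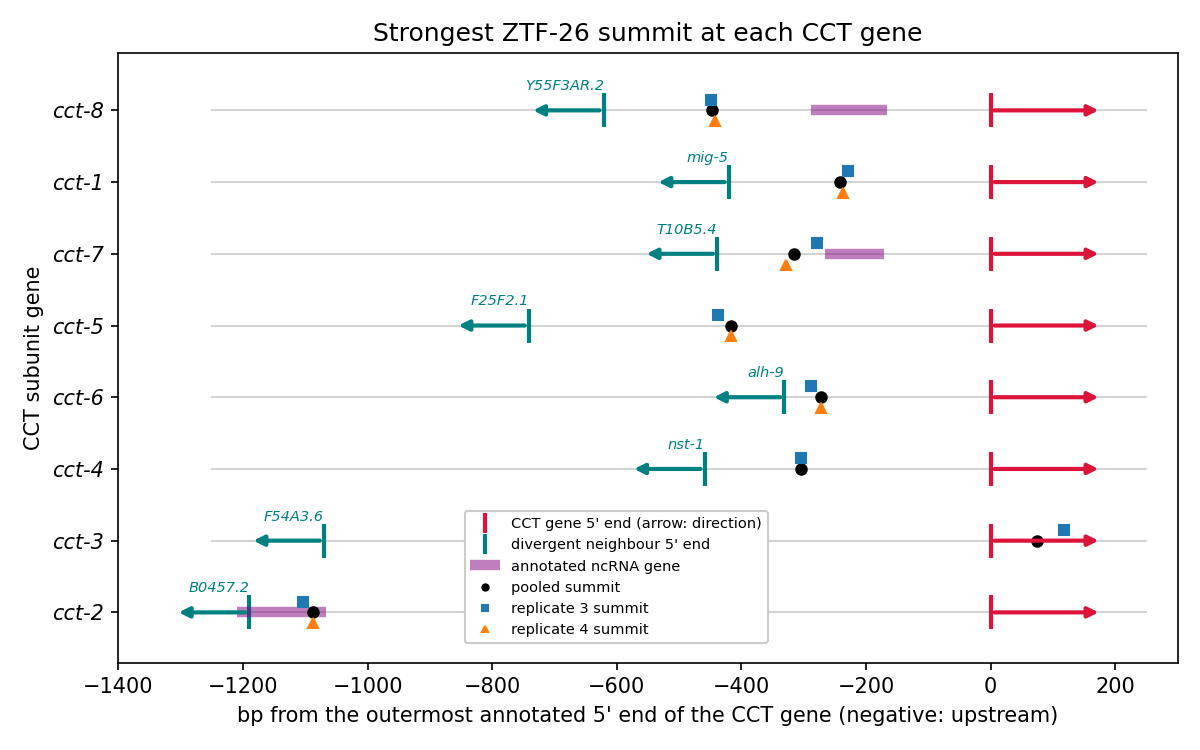
Position of the strongest summit at each CCT gene in bp from the gene's outermost annotated 5' end (red, at 0, negative upstream), in each replicate and pooled, with the 5' end of the divergent neighbour (teal) and annotated non-coding RNA genes (purple). The pooled summits lie between both 5' ends and nearer the neighbour in every row other than cct-3.

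Other non-coding RNA genes were also in these intervals. Y55F3AR.4 lies between cct-8 and its partner, with the cct-8 summit 280 bp downstream of its 5' end and outside it. T10B5.13 lies between cct-7 and its partner, and its 5' end was 50 bp from the pooled cct-7 summit. Over the 8 summits, the smallest distance to a tRNA gene was 37572 bp, at cct-5. The smallest distance to an annotated snoRNA gene was 17980 bp, at cct-7. These distances were not set beside those of other peaks.

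The replicates gave the same order at the strong sites and parted at the threshold. Taking the same number of peaks, 1929, from the top of each replicate's own list, 3 CCT genes had a summit in each, against 5.75% of all protein-coding genes in replicate 3 and 5.45% in replicate 4. In replicate 3 these were cct-8, cct-1 and cct-7. In replicate 4 they were cct-8, cct-1 and cct-5.

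The exchange of cct-7 for cct-5 came from opposite shifts. The signal of replicate 3 over that of replicate 4 was 2.47 at cct-7 and 1.01 at cct-5, while the 1918 optimal peaks with a candidate in both replicates had a median ratio of 1.73, with 1.44 and 2.09 as quartiles. At cct-8, cct-1 and cct-6 the ratio was 1.58, 1.84 and 1.78, inside those quartiles. The CCT ratios use the strongest summit in the promoter window in each replicate. Those of the optimal peaks use the strongest candidate overlapping the peak, and cct-5 and cct-6 are not among these peaks. The cct-7 peak ranked 1256 in replicate 3 and 3277 in replicate 4, and the cct-5 candidate 4003 and 1673. With 2 replicates, the order of cct-7 and cct-5 is not settled, whereas cct-8 and cct-1 led the family in both. Replicate summits lay 6 to 51 bp apart at these 5 genes, with the largest gap at cct-7.

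**Figure D4:**
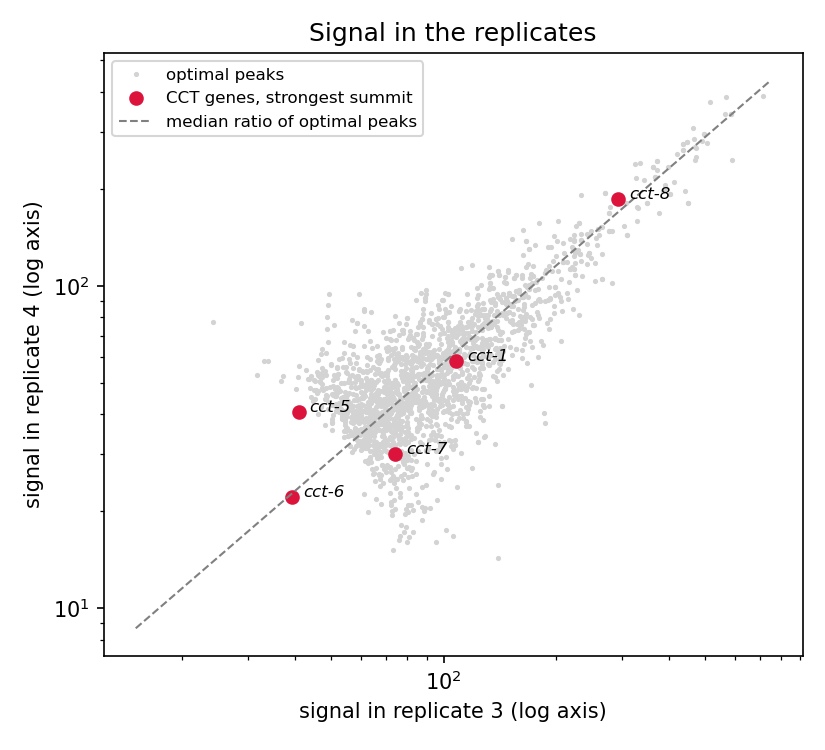
Signal in replicate 4 against signal in replicate 3 (log axes, authors' values) at the optimal peaks with a candidate in both (grey) and at the strongest summit of the 5 CCT genes with a candidate in both (red), with a dashed line at the median ratio of 1.73. cct-8, cct-1 and cct-6 sit close to the line, cct-7 below it and cct-5 above it.

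Each searched motif was in few or none of the CCT summit windows. Motifs were searched on both strands of the same summit windows at the 7 members with a candidate in the window. The E-box core CACGTG was in 0 of 7, against 8.24% of the 1929 optimal windows and 2.97% of the 26304 windows of lower-ranked candidates. Earlier results of these data gave further words as common at summits. Of these, CTGCGTC was in 0 of 7, against 7.98% of optimal and 2.19% of lower-ranked windows. The word GAGACGC was also in 0 of 7 (8.29% of optimal and 2.12% of lower-ranked windows). So was the repeat CTCTCTC (9.90% of optimal and 3.37% of lower-ranked windows). The word ACGCAGA, whose opposite strand overlaps the first of them, was in the cct-6 window alone (7.88% of optimal and 2.29% of lower-ranked windows). The word CGCCAGC was in the cct-8 window alone, 43 bp from the summit, and is in 3.58% of optimal and 0.715% of lower-ranked windows. The cct-2 candidate outside the window held GCGTCTC, the opposite strand of GAGACGC. With 7 windows, a count of 0 cannot be told apart from shares as low as these.

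Heat shock factor binds repeats of GAA and its complement, so paired units were searched as GAANNTTC and TTCNNGAA. The form TTCNNGAA was in the cct-5 and cct-6 windows, as TTCTAGAA in both, 1 and 37 bp from the summit. It is in 3.89% of optimal and 6.18% of lower-ranked windows. GAANNTTC was in 0 of the 7, against 4.77% of optimal and 6.29% of lower-ranked windows. None of the 3 optimal CCT windows held either form within 50 bp of the summit. With 100 bp on each side GAANNTTC was in 3 of 7 windows, at cct-1, cct-8 and cct-3, against 9.38% of optimal and 12.5% of lower-ranked windows. A match is only a match of letters and was not tested as a site.

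The content of G and C was above the median of optimal windows at all 3 optimal CCT windows. At cct-7 it was within the quartiles of optimal windows (40.6% and 52.5%). These bases made up 56.4% at cct-8, 54.5% at cct-1 and 48.5% at cct-7, all above the median of 46.5% over optimal windows. They made up 39.6% at cct-5, 41.6% at cct-6, 36.6% at cct-4 and 49.5% at cct-3, which was above cct-7. Lower-ranked windows had a median of 40.6% and an upper quartile of 47.5%. The part of base composition in the peak signal was not tested.

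Genes that act with CCT had peaks at scattered members. These lists were set from gene names, and their counts are read beside the 5.69% of all protein-coding genes. Of the 6 prefoldin genes only pfd-1 had an optimal peak, with a signal of 76.0 in replicate 3, 76.8 in replicate 4 and 152 when pooled. None of the 5 tubulin folding cofactor genes, which act after CCT on tubulin, had one.

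Among client genes, 1 of 5 actins (act-2, pooled signal 138) and 5 of 16 tubulins had an optimal peak. The tubulins were led by tba-2 (193), the gamma tubulin gene tbg-1 (178), tba-7 (141) and tbb-1 (135), and tba-1 (92.1), named after its values were seen, was close to the weakest optimal peak. Actin and tubulin copies are alike in sequence, so reads can be shared between copies, although the windows counted here lie mostly upstream of the coding sequence. Of 4 genes for WD40 repeat proteins whose counterparts fold on CCT in yeast or mammals (fzy-1, fzr-1, gpb-1 and gpb-2), 0 had an optimal peak.

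Other chaperones had peaks at a share close to that of CCT. Of 36 HSP70, HSP60 and DnaJ genes 11 (30.6%) had one, led by hsp-1 (407), hsp-60 (359), dnj-13 (347) and hsp-3 (337), all with a lower pooled signal than cct-8. The HSP90 gene hsp-90 had a pooled signal of 307 and the myosin chaperone gene unc-45 had no pooled candidate. Of 33 proteasome subunit genes 4 (12.1%) had one, led by rpn-11 (190), rpn-3 (183), pas-5 (133) and pbs-1 (121), and the rpn-3 peak is also that of hsp-110. The median of the strongest pooled signal, with genes that had no candidate set to 0, was 73.8 for CCT, against 154 for the 2 genes hsp-90 and unc-45, 66.2 for the actins and 53.9 for prefoldin. It was 42.5 for the HSP70, HSP60 and DnaJ genes, 41.4 for the WD40 genes, 38.2 for the tubulin folding cofactors, 35.6 for the proteasome, 28.4 for the tubulins and 0 for all protein-coding genes. The differences between these lists were not tested. As at CCT, a peak counted in these lists can be shared with another gene. The pooled values of pfd-1, tba-2, tbg-1, tbb-1, hsp-60, dnj-13, hsp-90, pas-5 and pbs-1 were each equal to that of another gene. Those of act-2, tba-1, tba-7, hsp-1, hsp-3 and rpn-11 were not. At the genes named here, optimal summits lay from 22 bp (rpn-11) to 921 bp (pas-5) from the gene's 5' end, with 819 bp at tbg-1.

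**Figure D5:**
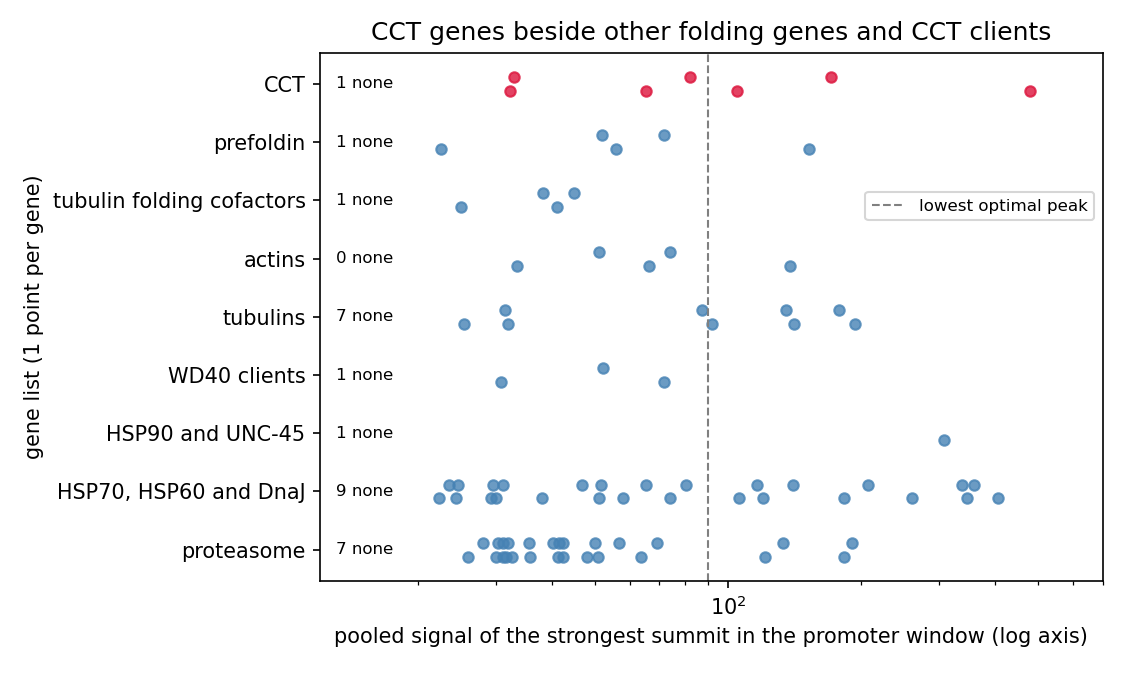
Pooled signal of the strongest summit in the promoter window (log axis, authors' value) for each gene of the CCT family (red) and of other lists (blue), with a dashed line at the lowest optimal peak (90.2) and, at the left, the number of genes with no candidate. CCT has 3 genes right of the line and holds the highest point, cct-8 at 481.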

How the data were processed

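The deposited peak lists on ce11 were used: the authors made, per the list deposited with the files, candidate lists of peaks and background from each replicate (30000 and 20373 peaks) and from both pooled (28233), each against a control alignment, and derived the optimal list from them by IDR (irreproducible discovery rate). The labels name no peak caller, aligner or IDR threshold. The list of 30000 has a round length, which was not read as a measurement. The deposited signal has no stated scale and was used to rank and describe peaks. The deposited −log10 q-value was 3.63 at every optimal peak and was not used to rank. In the pooled list it ran from 0.0178 to 3.63, with 3.19 at cct-5, 2.03 at cct-6, 0.186 at cct-4 and 0.173 at cct-3. Candidates were counted whatever this value was. The optimal list was checked and held exactly the 1929 strongest pooled peaks. Lists on ce10 were not used.

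Gene 5' ends came from Ensembl release 115 (WBcel235). Summits were assigned in Python 3.11.15, and the window calls were tested on simulated summits. All 8 members are named, with every gene sharing their summits, up to 4 strongest genes with an optimal peak per list (and, outside this rule, tba-1), and the genes nearest to cct-8 in pooled signal. The older symbol daf-21 is hsp-90. Members, lists and motifs were chosen with earlier results of these data known. With 1 group no test was made. Other windows, thresholds, replicates and gene assignments were tried.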

Additional observations from a re-analysis of the deposited data

How the results depend on the processing

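The count of 3 CCT genes with an optimal peak was 3 in 6 of the 9 alternatives. These were a window reaching 2000 bp upstream, a window of 500 bp upstream and 250 bp downstream, the outermost 5' end alone, peak intervals in place of summits, and each replicate alone. The share of all protein-coding genes moved with the setting. It was 7.62% with the wider window, 4.20% with the narrower one, 5.16% with the outermost 5' end and 6.21% with peak intervals. With either replicate left out the count was 3 in each case (lowest 3, highest 3), with cct-5 in place of cct-7 when replicate 3 was left out. Among the 965 strongest optimal peaks it was 2 (cct-1 and cct-8, against 3.13% of all protein-coding genes). It was 7 with any pooled candidate (40.1% of all protein-coding genes). It was 0 when a peak counted for the nearest protein-coding 5' end alone (4.48%). All 21 signal values, those of the 7 members with a candidate, kept their size under the 3 other windows. At cct-2, which is not among them, the window reaching 2000 bp upstream takes in the candidate with a pooled signal of 82.1. With 100 bp on each side of the summit 7 of 8 motif counts were the same, and GAANNTTC matched at 3 of 7 members (cct-1, cct-3 and cct-8), against 9.38% of optimal and 12.5% of lower-ranked windows. With 5' ends at most 1000 bp apart, an alternative chosen after seeing the data, 6 of 8 CCT genes were in head-to-head pairs, against 17.2% of all protein-coding genes. Depth is unknown, and the lists of replicates 3 and 4 end at signals of 14.2 and 13.4, so a weaker site at cct-3 or cct-4 in replicate 4 would not have been detectable.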

Other observations

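Downstream of the CCT genes, 5 of 8 (62.5%) had a protein-coding gene on the same strand at most 500 bp away, against 18.0% of all 19973 protein-coding genes. The limit and the genes named here were chosen after the gaps were seen, and the difference was not tested. The gap was 26 bp for cct-2 and mrpl-50, a mitochondrial ribosomal protein gene, 95 bp for cct-8 and csn-4, a COP9 signalosome subunit gene, 103 bp for cct-3 and F54A3.2, 143 bp for cct-5 and atf-7, a bZIP transcription factor gene, and 261 bp for cct-6 and ddx-23, an RNA helicase gene. The other members had gaps of 11202 bp (cct-1), 20278 bp (cct-7) and 39675 bp (cct-4).

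Weaker second summits lay inside or at the start of some members. In the pooled list cct-8 had one 808 bp downstream of its outer 5' end with a signal of 45.9, and cct-6 had one 10 bp downstream of a 5' end with a signal of 38.5. Replicate 4 alone listed one 14 bp upstream of the cct-1 5' end, with a signal of 17.6.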
